A study of Mus musculus with 9 samples.

Results

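A set of 10 genes of the hypoxia response and of sugar breakdown were followed through mouse skin after bleomycin, with and without nitrate. They were Hif1a, Slc2a1, Hk2, Pfkp, Pgk1, Ldha, Pdk1, Vegfa, Adm and Ankrd37, taken by gene symbol, and all 10 of the 10 names were found among the 54532 genes of the table. The series compared skin biopsies of 3 groups with 3 libraries each: bleomycin plus nitrate (Blm_nit), bleomycin alone (Blm) and control (ctrl). Every library carries the genotype label WT. The series title describes the nitrate as applied to the skin surface and the mice as a model of systemic sclerosis with skin fibrosis, and the design statement calls the controls healthy. Bleomycin is a DNA-cutting antibiotic whose injection into mouse skin leaves inflammation and fibrosis, which models the skin lesion and not the whole disease. Strain, age, sex, dose, days of treatment and any pooling of animals are not stated in the labels. Nothing in the labels says that the libraries of a group came from separate animals, so p-values measure the spread between these libraries, which may in part be technical. The question of the series was how nitrate alters gene expression in bleomycin skin.

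Cells sense oxygen through hypoxia-inducible factor (HIF). Its alpha subunit, encoded by Hif1a, is marked for destruction by prolyl hydroxylases when oxygen is present, so much of its control acts on the protein and not on the mRNA. In low oxygen the subunit pairs with Arnt and binds short DNA elements next to genes for glucose uptake, glycolysis, lactate production and vessel growth. Inflammatory signals and growth factors can also raise Hif1a mRNA, and in skin the epidermis and hair follicles rely strongly on glycolysis. Slc2a1 encodes the glucose transporter GLUT1. Hk2, Pfkp and Pgk1 encode a hexokinase, a phosphofructokinase and a phosphoglycerate kinase of glycolysis, and Ldha encodes the lactate dehydrogenase subunit that favours lactate. Pdk1 encodes a kinase that restrains pyruvate dehydrogenase. Vegfa and Adm encode secreted signals that act on blood vessels, and Ankrd37 encodes an ankyrin repeat protein used as a marker of HIF activity.

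Hif1a (ENSMUSG00000021109) lies at chr12:73901375-73947530, Slc2a1 (ENSMUSG00000028645) at chr4:119108711-119137983 and Ldha (ENSMUSG00000063229) at chr7:46841475-46855627, all on the forward strand of mm10. The 250 bases before their RefSeq start sites (GRCm38.p6) are printed because these 3 genes carry the calls described further on. Capitals mark the core of the HIF element, ACGTG or GCGTG, read on either strand, so that CACGT and CACGC are the same cores on the other strand. The windows are chr12:73907617-73907866 for Hif1a, chr4:119108495-119108744 for Slc2a1 and chr7:46845554-46845803 for Ldha, all on the forward strand.
Hif1a: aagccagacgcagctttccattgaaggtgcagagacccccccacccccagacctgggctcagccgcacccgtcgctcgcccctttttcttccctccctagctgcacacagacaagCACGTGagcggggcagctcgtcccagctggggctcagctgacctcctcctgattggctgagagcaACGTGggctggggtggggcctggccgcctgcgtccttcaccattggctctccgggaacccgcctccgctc
Slc2a1: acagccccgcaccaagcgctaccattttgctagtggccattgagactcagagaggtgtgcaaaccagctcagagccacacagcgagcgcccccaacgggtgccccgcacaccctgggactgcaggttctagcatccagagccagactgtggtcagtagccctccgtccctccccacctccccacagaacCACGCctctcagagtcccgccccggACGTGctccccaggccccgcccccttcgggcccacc
Ldha: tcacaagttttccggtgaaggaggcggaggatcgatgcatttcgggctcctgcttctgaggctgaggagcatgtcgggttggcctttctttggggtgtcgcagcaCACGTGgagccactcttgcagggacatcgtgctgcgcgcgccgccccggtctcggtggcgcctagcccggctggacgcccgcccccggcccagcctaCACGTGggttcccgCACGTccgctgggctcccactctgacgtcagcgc
The Hif1a window held 3 core matches, the Slc2a1 window 2 and the Ldha window 5, with the palindrome CACGTG counted on both strands. All 10 genes matched the RefSeq promoter table by symbol, and the first windows of 9 of the 10 held at least 1 core. Across all 32851 windows of that length in the table, 38.6% held at least 1 and 16.7% at least 2. The first Vegfa window held none and the second held 2. A match of these letters is a description of the sequence and not a measured binding site.

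The libraries held 15804050 to 18352592 reads in genes. Expression was given as FPKM, a read count scaled to gene length and to an effective sequencing depth, which was not the summed reads of a library. limma was run on log2(FPKM + 1) for 14645 genes, those that reached 1 FPKM in 3 or more libraries. A gene was called at an adjusted p under 0.05, and differences are given on that log2 scale, which understates changes of low genes. The skin markers were present in every library, at 6127 to 10147 summed FPKM over 10 genes in Blm_nit skin, 8231 to 11307 in Blm skin and 7902 to 8406 in ctrl skin. Of these 10, 3 were called higher and 3 lower in Blm against ctrl skin, beside 4.74% and 3.69% of all tested genes. Markers of other tissues also moved with the groups. Over 20 skeletal muscle genes the summed level was 2912 to 13251 FPKM in Blm_nit skin, 3800 to 16750 in Blm skin and 17910 to 26888 in ctrl skin. Of these, Tnnc2 was at 0 in 6 libraries, which were all the Blm and ctrl libraries. Its zeros thus included the libraries with the highest muscle sums, and how they arose was not tested. Over 25 growing hair follicle genes it was 2467 to 16310, 61.1 to 5231 and 8.11 to 3056 FPKM in the same order of groups, and 12 of the 25 were at 0 in ctrl 1. Over 15 fat cell genes it was 849 to 1381 FPKM in Blm_nit skin, 1402 to 1695 in Blm skin and 2726 to 3969 in ctrl skin. Over 15 neutrophil and macrophage genes it was 273 to 649 FPKM in Blm_nit skin, 1212 to 4022 in Blm skin and 313 to 467 in ctrl skin, with Ly6g at 0 in 7 libraries. All 15 stress keratinocyte genes were called higher in Blm skin than in ctrl skin, against 4.74% of all tested genes. Their summed level was 2393 to 6849 FPKM in Blm skin, 209 to 405 in ctrl skin and 1228 to 2135 in Blm_nit skin. In whole biopsies, fewer cells of a type and less RNA per cell cannot be told apart. The mean log2(FPKM + 1) of the muscle markers, a covariate further on, was 8.27 to 8.85 in ctrl libraries and at most 8.24 in the others. That of the hair follicle markers, also a covariate, was 5.27 to 7.94 in Blm_nit and 0.309 to 5.51 in ctrl libraries. These covariates follow the groups, so a call lost or kept in such a fit cannot tell tissue content from treatment.

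In all, 1234 of the 14645 genes were called between Blm and ctrl skin (8.43%), with 694 higher and 540 lower, 0 between Blm_nit and Blm skin, and 1249 between Blm_nit and ctrl skin (8.53%), with 532 higher and 717 lower. With limma-voom on reads recovered from the FPKM the splits were 850 higher and 395 lower, and 1040 higher and 580 lower, and the median of all genes lay at 0.13 and 0.18. Voom scaled each library to its summed reads, and the FPKM to an effective depth whose ratio to summed reads was lowest in the ctrl libraries. The voom and main fits therefore differ in scaling by construction. Between Blm_nit and Blm skin 2624 genes had an unadjusted p under 0.05 (17.9%), and voom also called 0. These counts changed with the libraries used, and leaving out a library of a compared group also leaves fewer to compare. For Blm against ctrl the count was 334 without ctrl 2, 525 without Blm 3, 534 without Blm 1, 595 without ctrl 3, 629 without ctrl 1 and 695 without Blm 2. It was 1140 without Blm_nit 1, 1539 without Blm_nit 2 and 1456 without Blm_nit 3. For Blm_nit against ctrl it was 45 without ctrl 2, 83 without ctrl 1, 170 without Blm_nit 3, 474 without Blm_nit 1, 711 without ctrl 3 and 2882 without Blm_nit 2. It was 642 without Blm 3, 856 without Blm 2 and 903 without Blm 1. For Blm_nit against Blm it was 37 without Blm_nit 1, 13 without Blm 2 and 4 each without Blm 1 and without Blm 3.

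Of the 10 genes, Hif1a and Slc2a1 rose in Blm skin against ctrl skin, and none of the 10 fell, against 4.74% of all tested genes called higher and 3.69% called lower. The estimates of the 10 had a median of 0.23, against 0.01 over all tested genes, with 6 above 0 (51.6% of all genes) and 4 below. The number above 0 was 9 with voom, 5 with quantile normalization and 10 with the skeletal muscle marker mean as a covariate. Of the 10, 3 did not overlap between the groups and were higher in Blm skin (18.4% of all genes). In Blm_nit skin against Blm skin all 10 estimates lay below 0, with a median of -0.63 against -0.003 over all tested genes, of which 50.4% lay below 0. None of the 10 was called there by limma, against 0% of all genes. At an unadjusted p under 0.05, 4 of the 10 were lower, against 10.4% of all genes, and 3 lay below the Blm libraries without overlap (11.8%). With the skeletal muscle marker mean as a covariate 8 of the 10 lay below 0, with a median of -0.29, and with that of the hair follicle markers 9 did, with a median of -0.30. In Blm_nit skin against ctrl skin Ldha fell and none rose, against 4.90% called lower and 3.63% called higher among all genes, and the median was -0.09. The comparisons share libraries in pairs, so a high Blm library enters 2 of them with opposite sign. Blm 1 was the highest of the 9 libraries for Hk2, Pfkp, Pgk1, Vegfa, Adm and Ankrd37. Without Blm 1, 8 of the 10 estimates in Blm_nit against Blm lay below 0, with a median of -0.26, and in Blm against ctrl the median was 0.03.

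**Figure D1:**
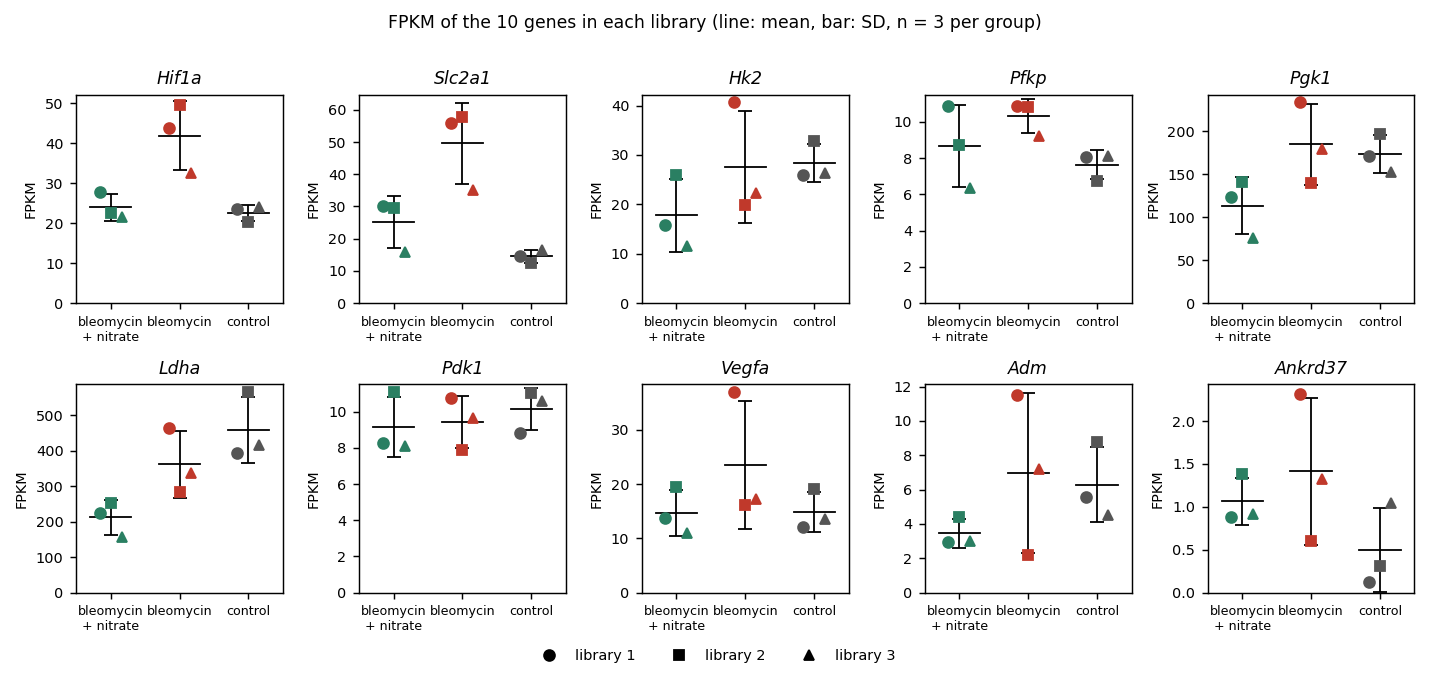
FPKM of the 10 genes in each library on linear axes that start at 0, with points for libraries, lines for group means and bars for SD (n = 3 each). Hif1a and Slc2a1 are higher in all 3 Blm libraries than in any other library, while the mean of Ldha is 212 FPKM in Blm_nit skin, 361 in Blm skin and 459 in ctrl skin.

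Hif1a mRNA, which encodes the oxygen-regulated HIF subunit, had 27.8, 22.5 and 21.4 FPKM in the 3 Blm_nit libraries, 43.7, 49.5 and 32.5 FPKM in the Blm libraries and 23.5, 20.2 and 24.0 FPKM in the ctrl libraries. Every Blm library lay above every library of the other groups, and the Blm_nit and ctrl ranges overlapped. Hif1a rose in Blm against ctrl skin by 0.85 ± 0.17 on the log2 scale (SE, limma adjusted p = 0.0231), with means of 41.9 ± 8.66 FPKM in Blm skin and 22.5 ± 2.07 in ctrl skin (SD, n = 3 each). In Blm_nit against Blm skin the difference was -0.77 ± 0.17, with a 95% interval of -1.17 to -0.38 and an adjusted p of 0.117, so it was not called (0.073 to 0.364 over 22 alternatives). Against ctrl skin the Blm_nit value differed by 0.08 ± 0.17 (interval -0.32 to 0.47, adjusted p = 0.782).

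The call of Hif1a in Blm skin held in 14 of 22 alternatives. Its adjusted p was 0.0716 without Blm 1, 0.0631 without Blm 2, 0.0587 without ctrl 1, 0.0953 without ctrl 2 and 0.0567 without ctrl 3, with estimates from 0.72 to 1.02 over all 22 alternatives. With the skeletal muscle marker mean as a covariate the difference was 0.76 (adjusted p = 0.103). The summed neutrophil and macrophage markers and the summed stress keratinocyte markers were, like Hif1a and Slc2a1, higher in every Blm library than in any other library, and their part in these results was not tested.

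Slc2a1, the GLUT1 gene, gave the largest rise of the 10. It had 30.3, 29.5 and 15.9 FPKM in Blm_nit skin, 56.04, 57.7 and 35.2 FPKM in Blm skin and 14.6, 12.4 and 16.3 FPKM in ctrl skin. All Blm libraries stood above all others, and of the Blm_nit libraries 2 stood above the ctrl libraries while Blm_nit 3 lay within their range. The Blm mean was 3.43 times the ctrl mean, and the log2 difference was 1.69 ± 0.28 (limma adjusted p = 0.0119). This call held in 20 of 22 alternatives, with an adjusted p of 0.0547 without ctrl 2 and 0.0972 without both ctrl 1 and Blm 1. With the muscle marker mean as a covariate it was 1.82 (adjusted p = 0.0377). In Blm_nit against Blm skin Slc2a1 differed by -0.97 ± 0.28 (interval -1.60 to -0.34, adjusted p = 0.142), and in Blm_nit against ctrl skin by 0.72 ± 0.28 (interval 0.08 to 1.35, adjusted p = 0.124), and neither was called.

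**Figure D2:**
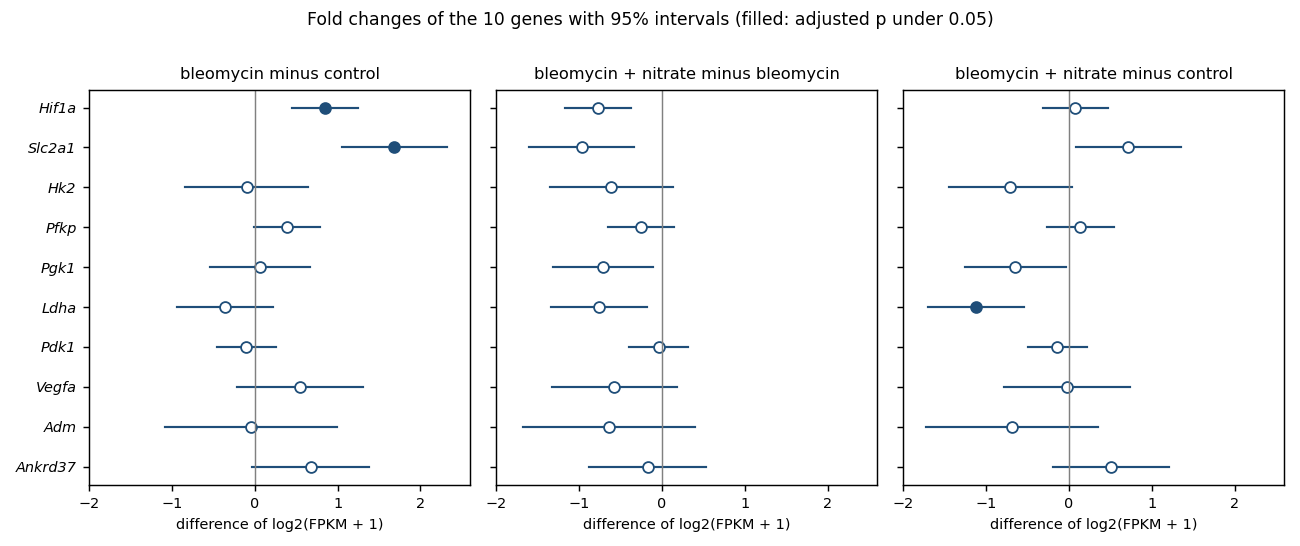
Log2 differences of the 10 genes with their 95% intervals in the 3 comparisons (n = 3 libraries a group), filled where called. In Blm against ctrl the intervals of Slc2a1 and Hif1a lie above 0, and in Blm_nit against Blm all 10 estimates lie below 0.

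Ldha was the most abundant of the 10 per length, with a mean of 344 FPKM over the 9 libraries. It had 226, 253 and 157 FPKM in Blm_nit skin, 464, 283 and 336 FPKM in Blm skin and 394, 566 and 417 FPKM in ctrl skin. Every Blm_nit library lay below every library of the other groups, while Blm and ctrl overlapped. Ldha fell in Blm_nit skin to 0.462 of the ctrl mean, a log2 difference of -1.12 ± 0.25 (limma adjusted p = 0.0362). It differed by -0.76 ± 0.25 in Blm_nit against Blm skin (adjusted p = 0.181) and by -0.36 ± 0.25 in Blm against ctrl skin (interval -0.94 to 0.22, adjusted p = 0.399). The call against ctrl held in 11 of 22 alternatives. The adjusted p was 0.0764 without Blm_nit 1, 0.112 without Blm_nit 3, 0.0589 without Blm 3, 0.0867 without ctrl 1, 0.130 without ctrl 2 and 0.0646 without ctrl 3. The skeletal muscle markers followed the same order of groups, with 4 of 19 tested falling in Blm_nit against ctrl skin. So did the fat cell markers, of which 11 of 15 fell, beside 4.90% of all tested genes called lower. With the mean of the muscle markers as a covariate the Ldha difference was -0.51 (adjusted p = 0.483), and with that of the hair follicle markers -0.88 (0.286), and the part of those tissues in the result was not tested.

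Of the 10 genes, the other glycolytic enzymes, Pgk1, Hk2 and Pfkp, were not called in any comparison. Pgk1 had 124, 141 and 76.2 FPKM in Blm_nit skin, 235, 139.9 and 179.7 FPKM in Blm skin and 171, 197 and 153 FPKM in ctrl skin. All Blm_nit libraries lay below the ctrl libraries (17.5% of all genes did so), by -0.65 ± 0.27 (adjusted p = 0.140), and Blm_nit 2 lay just above Blm 2. Pgk1 differed by 0.06 ± 0.27 in Blm against ctrl (interval -0.54 to 0.67, adjusted p = 0.902) and by -0.71 ± 0.27 in Blm_nit against Blm (interval -1.32 to -0.11, adjusted p = 0.214). Hk2 had 15.8, 26.02 and 11.6 FPKM in Blm_nit skin, 40.7, 19.9 and 22.4 FPKM in Blm skin and 25.9, 32.9 and 26.4 FPKM in ctrl skin. The groups overlapped in each comparison, with Blm 1 the highest and Blm_nit 3 the lowest of the 9 libraries. Hk2 differed by -0.10 ± 0.33 in Blm against ctrl, -0.61 ± 0.33 in Blm_nit against Blm and -0.71 ± 0.33 in Blm_nit against ctrl (adjusted p of 0.875, 0.366 and 0.173). Pfkp had 10.9, 8.74 and 6.34 FPKM in Blm_nit skin, 10.9, 10.8 and 9.25 FPKM in Blm skin and 8.06, 6.74 and 8.13 FPKM in ctrl skin. Each Blm library was above each ctrl library, by 0.39 ± 0.18 (interval -0.01 to 0.79, adjusted p = 0.198), while the Blm_nit range spanned the ctrl range. Pfkp overlaps Pitrm1, on the opposite strand at 8.51 to 31.2 FPKM, and the sources do not state whether counting used strand.

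Pdk1, the kinase that restrains pyruvate dehydrogenase, was the steadiest of the 10 between groups. It had 8.28, 11.06 and 8.10 FPKM in Blm_nit skin, 10.7, 7.90 and 9.63 FPKM in Blm skin and 8.83, 11.02 and 10.6 FPKM in ctrl skin, and all ranges overlapped. The intervals of its log2 differences were -0.46 to 0.26 for Blm against ctrl, -0.40 to 0.32 for Blm_nit against Blm and -0.50 to 0.22 for Blm_nit against ctrl (adjusted p of 0.716, 0.919 and 0.555).

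The secreted signals varied widely within Blm skin. Vegfa, the main growth factor of vessel sprouting, had 13.7, 19.4 and 10.99 FPKM in Blm_nit skin, 37.01, 16.1 and 17.3 FPKM in Blm skin and 12.1, 19.1 and 13.5 FPKM in ctrl skin. Blm 1 stood far above the rest, and the other libraries overlapped across groups. Vegfa differed by 0.54 ± 0.33 in Blm against ctrl (interval -0.22 to 1.30, adjusted p = 0.329), by -0.57 ± 0.33 in Blm_nit against Blm (adjusted p = 0.409) and by -0.03 ± 0.33 in Blm_nit against ctrl (interval -0.79 to 0.73). With the skeletal muscle marker mean as a covariate, the Blm against ctrl difference was 1.14 and was called (adjusted p = 0.0377). Without Blm 1 that difference was 0.18 (0.696) and without both ctrl 1 and Blm 1 it was 0.048 (0.937), and the Blm_nit against Blm difference was -0.21 without Blm 1 (0.806). Adm, which encodes the vessel-relaxing peptide adrenomedullin, had 2.96, 4.42 and 2.99 FPKM in Blm_nit skin, 11.5, 2.17 and 7.22 FPKM in Blm skin and 5.57, 8.74 and 4.55 FPKM in ctrl skin. Blm 1 was the highest and Blm 2 the lowest of the 9 libraries, and all Blm_nit libraries lay below all ctrl libraries, by -0.68 ± 0.45 (adjusted p = 0.328). It differed by -0.04 ± 0.45 in Blm against ctrl (adjusted p = 0.966) and by -0.64 ± 0.45 in Blm_nit against Blm (0.492).

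Ankrd37 was near the limit of detection and overlaps Ufsp2 (5.81 to 7.06 FPKM) and Lrp2bp (0.0969 to 2.36 FPKM) on the opposite strand. It reached 1 FPKM in 4 libraries, with 0.885, 1.38 and 0.922 FPKM in Blm_nit skin, 2.31, 0.600 and 1.33 FPKM in Blm skin and 0.127, 0.309 and 1.05 FPKM in ctrl skin. These values stood for 25, 39 and 27 reads in Blm_nit skin, 58, 16 and 36 in Blm skin and 3, 8 and 28 in ctrl skin. The 2 lowest libraries were ctrl, but ctrl 3 lay within the range of the other groups. The difference was 0.68 ± 0.31 in Blm against ctrl (interval -0.03 to 1.38, adjusted p = 0.204), -0.17 ± 0.31 in Blm_nit against Blm and 0.51 ± 0.31 in Blm_nit against ctrl.

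By mean FPKM over the 9 libraries the order was Ldha at 344, Pgk1 at 157, Slc2a1 at 29.8, Hif1a at 29.5, Hk2 at 24.6, Vegfa at 17.7, Pdk1 at 9.57, Pfkp at 8.87, Adm at 5.57 and Ankrd37 at 0.990. Slc2a1 and Hif1a were neighbours that changed places between groups: Slc2a1 averaged 25.2 ± 8.12 FPKM and Hif1a 23.9 ± 3.41 in Blm_nit skin, 49.6 ± 12.6 and 41.9 ± 8.66 in Blm skin, and 14.5 ± 1.96 and 22.5 ± 2.07 in ctrl skin. In ctrl skin Slc2a1 was below Hif1a in every library, and in Blm skin it was above Hif1a in every library. In Blm_nit skin Slc2a1 was above Hif1a in Blm_nit 1 and Blm_nit 2 and below it in Blm_nit 3. Between libraries, the ranges of these genes overlapped in Blm_nit and in Blm skin. Pdk1 and Pfkp overlapped in Blm_nit and Blm skin, while in ctrl skin Pdk1 was above Pfkp in every library.

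Set against the enzyme at the end of the pathway, the transporter separated both bleomycin groups from ctrl skin. This ratio was chosen after the values were seen and is given with no test. The Slc2a1 level divided by the Ldha level was 0.134, 0.117 and 0.101 in Blm_nit skin, 0.121, 0.204 and 0.105 in Blm skin and 0.0371, 0.0220 and 0.0392 in ctrl skin. All 6 bleomycin-treated libraries lay above the ctrl libraries, and the Blm_nit and Blm ranges overlapped. Divided by Pgk1, Slc2a1 gave 0.244, 0.210 and 0.208 in Blm_nit skin, 0.239, 0.413 and 0.196 in Blm skin and 0.0854, 0.0630 and 0.107 in ctrl skin, in the same arrangement. Hif1a divided by Ldha gave 0.123, 0.0889 and 0.136 in Blm_nit skin, 0.0941, 0.175 and 0.0967 in Blm skin and 0.0596, 0.0357 and 0.0576 in ctrl skin. A ratio shows unequal change of its genes, and the skeletal muscle markers, whose tissue holds much Ldha, were highest in ctrl skin. Their part in the ratio was not tested.

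**Figure D3:**
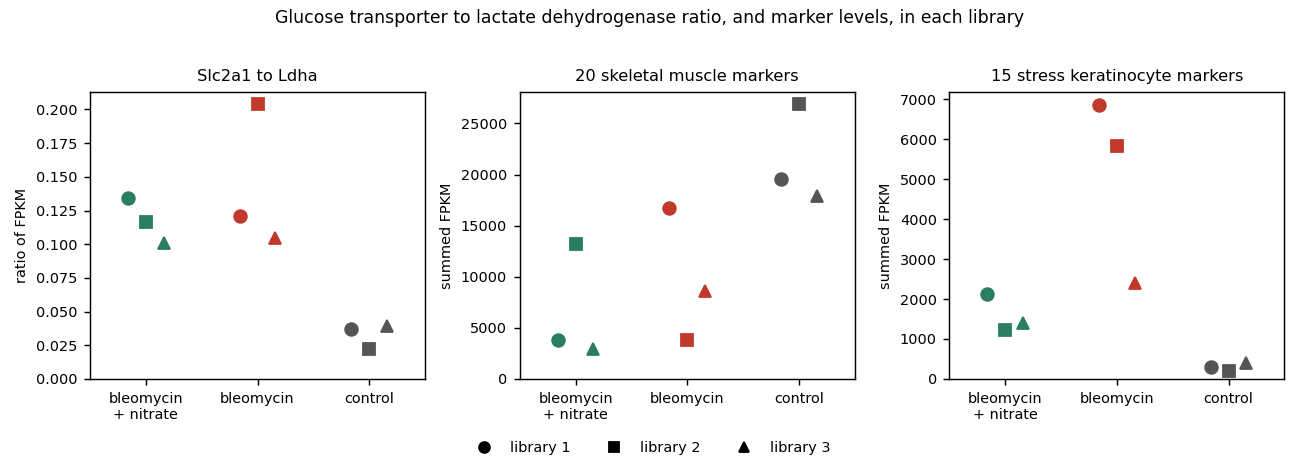
Ratio of Slc2a1 to Ldha FPKM in each library, beside the summed FPKM of 20 skeletal muscle and 15 stress keratinocyte markers in the same libraries. The ratio is at most 0.0392 in ctrl libraries and at least 0.101 in the others, while the muscle sum is 17910 or more in ctrl libraries and 16750 or less in the others.

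Other glycolysis genes rose in part. Of 19 listed, 18 were tested, and 4 rose and none fell in Blm against ctrl skin, beside 4.74% and 3.69% of all tested genes, with a median of 0.04. Pgam1, a phosphoglycerate mutase, had 88.1, 66.1 and 73.7 FPKM in Blm_nit skin, 114.5, 105.9 and 111 FPKM in Blm skin and 58.4, 55.6 and 58.1 FPKM in ctrl skin, and rose by 0.93 ± 0.13 (limma adjusted p = 0.00703). Eno1, an enolase, averaged 75.3 FPKM in Blm_nit skin, 119 in Blm skin and 67.1 in ctrl skin, and rose by 0.82 ± 0.16 (adjusted p = 0.0189). Pfkl, the liver-type phosphofructokinase, averaged 9.97, 16.7 and 9.37 FPKM in the same order of groups and rose by 0.77 ± 0.15 (0.0187). Aldoc, an aldolase, averaged 3.30, 2.55 and 1.19 FPKM and rose by 0.71 ± 0.18 (0.0486). Of the 4 calls, 1 remained without Blm 1, without Blm 3 and without ctrl 1, 2 without ctrl 3, and 3 without each of Blm_nit 1, Blm_nit 2, Blm 2 and ctrl 2. With the skeletal muscle covariate 2 remained, and without both ctrl 1 and Blm 1 none did. Aldoa, the aldolase of muscle, averaged 645 FPKM in Blm_nit skin, 795 in Blm skin and 1570 in ctrl skin, with a difference of -1.11 ± 0.48 in Blm against ctrl that was not called (adjusted p = 0.183).

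In Blm_nit against Blm skin, 15 of these 18 genes had estimates below 0 (50.4% of all tested genes). Their median was -0.59, against -0.003 over all genes, and none was called (0% of all genes). Pfkl differed by -0.70 (adjusted p = 0.103), Pgam1 by -0.54 (0.121) and Eno1 by -0.66 (0.123). Slc16a3, the lactate exporter MCT4, averaged 5.66 FPKM in Blm_nit skin, 16.1 in Blm skin and 16.8 in ctrl skin, a difference of -1.42 ± 0.41 from Blm (0.143). In Blm_nit against ctrl skin Aldoc rose by 0.99 ± 0.18 (0.0227) and Pfkfb3, which makes an activator of phosphofructokinase, fell by 1.25 ± 0.28 (0.0349). Each was the 1 gene of the 18 called in its direction, beside 3.63% of all tested genes called higher and 4.90% lower. Of these 2 calls, 1 remained without each of Blm_nit 1, Blm 1, Blm 2 and Blm 3, and none without Blm_nit 3, ctrl 1 or ctrl 2, with no filter, with only the groups compared or with either marker covariate. Genes named for Blm_nit against ctrl skin in the lists were picked after their values were seen. Gapdh stood at only 0.699 to 3.62 FPKM in every library, which was noticed after the values were seen. How reads shared with pseudogenes were counted is not stated, so such a level is uncertain. The pseudogenes Ldha-ps2 (1.13 to 4.64 FPKM) and Pgk1-rs7 (0.782 to 1.88 FPKM) were listed beside Ldha and Pgk1.

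**Figure D4:**
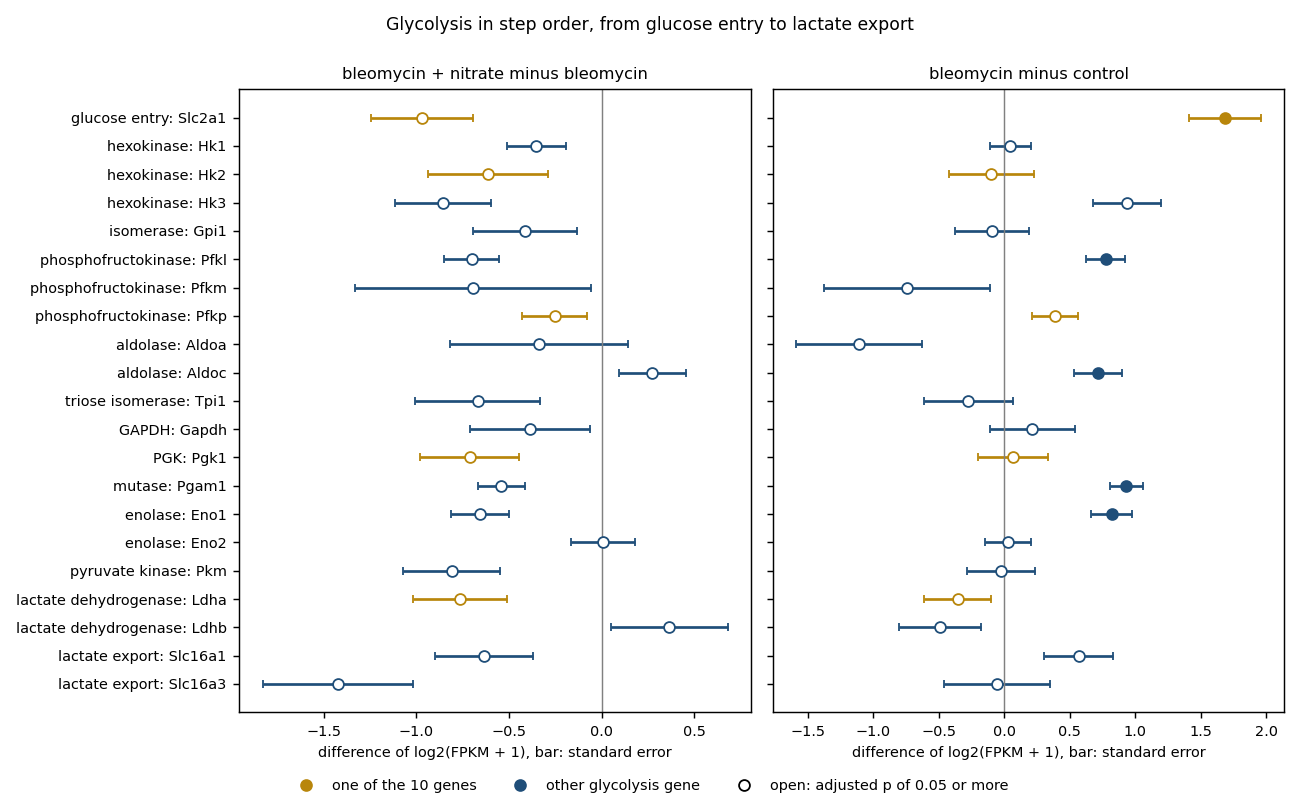
Log2 differences of glycolysis and lactate genes in the order of the pathway, from glucose uptake to lactate export, for Blm_nit against Blm (left) and Blm against ctrl (right), with standard errors as bars and filled points where called. Slc2a1, Pfkl, Pgam1, Eno1 and Aldoc were called higher in Blm skin against ctrl skin, and none was called in Blm_nit against Blm.

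Among 21 other HIF target genes, Car9 included, 3 were called higher and 2 lower in Blm against ctrl skin, beside 4.74% and 3.69% of all tested genes, with a median of 0.11. Car9, a carbonic anhydrase, was at 1 FPKM or more in the Blm libraries and in no other, so it was tested because it was high there and its direction was fixed by the filter. Fam162a, a mitochondrial protein induced by hypoxia, had 61.99, 83.7 and 63.9 FPKM in Blm_nit skin, 194, 134 and 126 FPKM in Blm skin and 45.2, 54.8 and 46.3 FPKM in ctrl skin. Its Blm libraries stood above all others, it rose by 1.59 ± 0.20 (limma adjusted p = 0.00566), and it stayed called in all 22 alternatives (0.00265 to 0.0483). Egln3, an oxygen-sensing prolyl hydroxylase that is itself a HIF target, averaged 44.4 FPKM in Blm_nit skin, 83.4 in Blm skin and 24.7 in ctrl skin and rose by 1.65 ± 0.33 (0.0229). The Car9 difference was 0.83 ± 0.17 (0.026). Ddit4, a stress-induced brake on growth signalling, fell by 0.92 ± 0.22 (0.0397), and P4ha2, a collagen prolyl hydroxylase subunit, fell by 0.61 ± 0.15 (0.0427). Of these calls, 1 remained without each of Blm 1, Blm 3 and ctrl 2, 2 without ctrl 1 and without ctrl 3, 3 without Blm 2, and 4 without Blm_nit 1. With no filter 2 remained, and with either marker covariate 3.

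In Blm_nit against Blm skin 16 of these 21 genes lay below 0 (50.4% of all tested genes) and 5 above. Their median was -0.30, against -0.003 over all genes, and none was called (0% of all genes). At an unadjusted limma p under 0.05, 8 were lower (10.4% of all genes) and 3 higher. Without overlap, 5 lay below the Blm libraries (11.8% of all genes) and 2 above. Fam162a differed by -1.09 ± 0.20 (adjusted p = 0.089) and P4ha2 by -0.60 (0.126). Car9 differed by -0.82 (0.105), a direction that the filter also fixed. In Blm_nit against ctrl skin 2 of the 21 were called higher and 3 lower, beside 3.63% and 4.90% of all tested genes. Ero1l, an oxidase of protein folding, rose by 1.36 ± 0.27 (0.0277) and Bnip3l, a mitophagy receptor, by 0.51 ± 0.11 (0.0305). P4ha2 fell by 1.21 (0.011), Ddit4 by 0.99 (0.0353) and Cited2, a feedback inhibitor of HIF, by 0.69 (0.0371). Of these 5 calls, 1 remained without each of Blm_nit 1, Blm_nit 3, ctrl 1 and ctrl 2, 3 without each of Blm 1, Blm 3 and ctrl 3, and 4 without Blm 2. With no filter 1 remained, with only the groups compared 2, and with either marker covariate none.

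**Figure D5:**
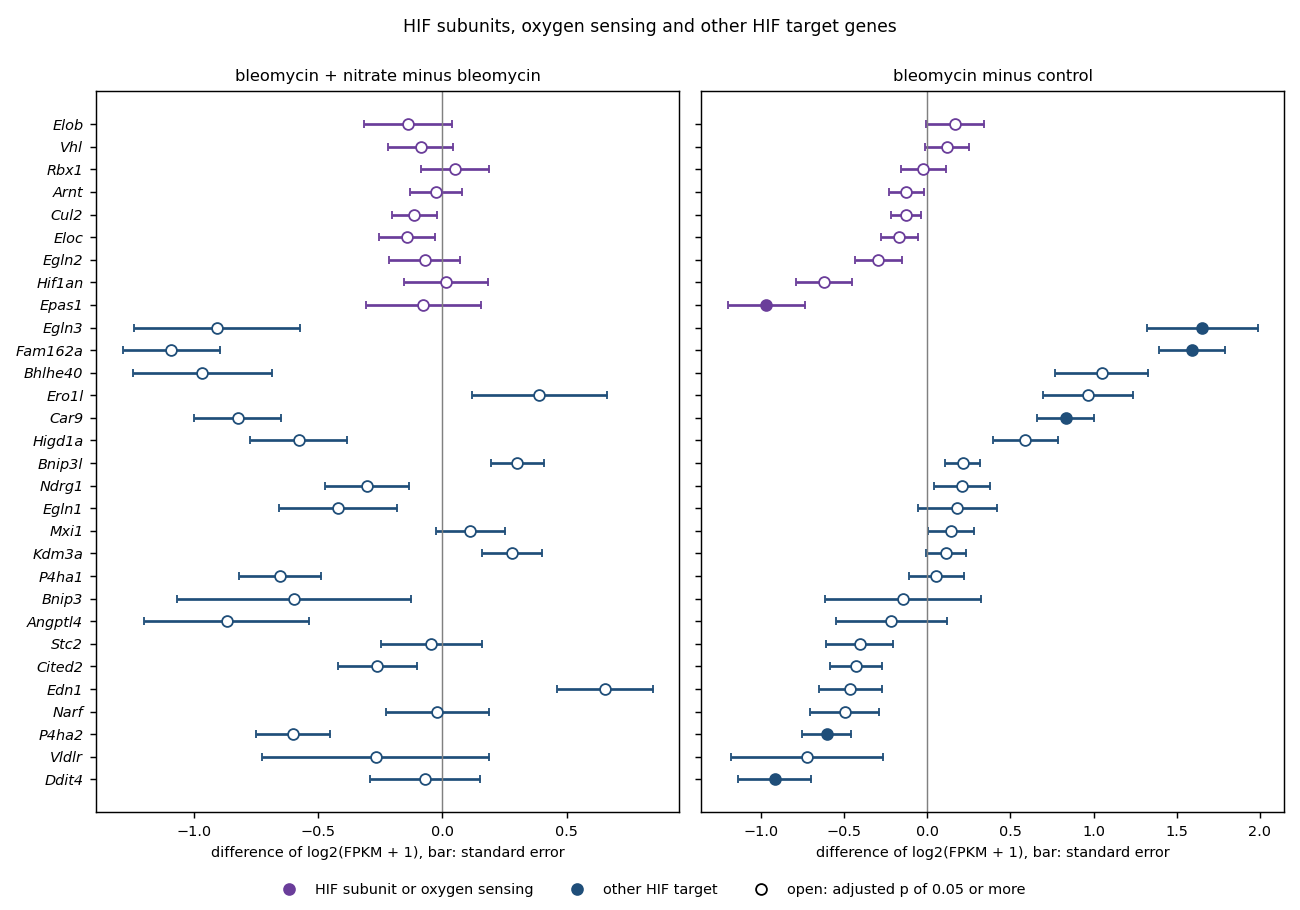
Log2 differences of 9 HIF subunit and oxygen-sensing genes and 21 other HIF target genes in Blm_nit against Blm (left) and Blm against ctrl (right), with standard errors as bars and filled points where called. Fam162a, Egln3 and Car9, whose direction the filter fixed, are called higher and Ddit4, P4ha2 and Epas1 lower in Blm skin against ctrl skin.

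Among other HIF subunits and oxygen-sensing genes, 9 of 10 listed genes were tested. In Blm against ctrl skin none rose and 1 fell, beside 4.74% and 3.69% of all tested genes. This was Epas1, which encodes the HIF-2 alpha subunit of endothelial and other cells, with a fall of 0.97 ± 0.23 (limma adjusted p = 0.0397). Epas1 averaged 35.0 FPKM in Blm_nit skin, 36.1 in Blm skin and 71.1 in ctrl skin, and it also fell in Blm_nit against ctrl skin by 1.04 (0.0352). There 1 of the 9 was called lower and none higher, beside 4.90% and 3.63% of all tested genes. In that comparison 6 of the 9 lay below the ctrl libraries without overlap (17.5% of all genes). The first call was lost without each of Blm_nit 1, Blm 1, Blm 2, Blm 3, ctrl 1, ctrl 2 and ctrl 3, and the second without the same libraries except Blm 2, or without Blm_nit 3, with adjusted p up to 0.178 and 0.441 over all alternatives. Both were also lost with no filter and with either marker covariate, and the second with only the groups compared. Hif1an, the asparagine hydroxylase that limits HIF activity, differed by -0.62 ± 0.17 (0.059), and Arnt by -0.13 (0.469), in Blm against ctrl skin. None of the 9 was called in Blm_nit against Blm skin (0% of all genes).

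Of 14 tested ligands and receptors around Vegfa and Adm, 10 estimates lay below 0 in Blm against ctrl skin (48.4% of all genes). Their median was -0.36, against 0.01 over all tested genes. Of these 14 genes, Ramp3 rose (0.89 ± 0.21, adjusted p = 0.0369) and Ramp2 fell (-0.89 ± 0.23, 0.0467) in Blm against ctrl skin. Among all tested genes 4.74% were called higher and 3.69% lower there. Ramp3 and Ramp2 both encode partners of the adrenomedullin receptor Calcrl. Ramp3 had 1.11, 1.03 and 0.876 FPKM in Blm_nit skin, 2.62, 3.30 and 3.12 FPKM in Blm skin and 1.14, 0.603 and 1.92 FPKM in ctrl skin, so the Blm libraries stood above all others. None of these 2 calls remained without Blm 1, Blm 2, Blm 3, ctrl 1 or ctrl 2, and 1 remained without each of Blm_nit 1, Blm_nit 3 and ctrl 3. Both were also lost with a pseudocount of 0.1, with no filter and with either marker covariate. In Blm_nit against ctrl skin none of the 14 rose and 6 fell, beside 3.63% and 4.90% of all tested genes. The 6 were the VEGF receptors Kdr (-1.03, 0.0374) and Flt1 (adjusted p = 0.0382), the co-receptor Nrp1 (-0.96, 0.0332), Calcrl (-0.96, 0.048), Ramp2 (-1.02, 0.0345) and the scavenging receptor Ackr3 (-0.57, 0.0352). Of these 6, none remained without ctrl 1 or ctrl 2, 1 without Blm_nit 3 and without Blm 3, 2 without each of Blm_nit 1, Blm 2 and ctrl 3, and 3 without Blm 1. None remained with no filter, with only the groups compared or with either marker covariate. The summed level of 15 endothelial markers was 200 to 365 FPKM in Blm_nit skin, 304 to 323 in Blm skin and 469 to 528 in ctrl skin. Of the 15, 9 fell in Blm_nit against ctrl (4.90% of all genes) and 5 in Blm against ctrl (3.69%). The part of vessel content in the receptor levels was not tested.

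Of 10 genes of pyruvate dehydrogenase and its kinases, Pdk4, the kinase that spares glucose in fasting muscle, was the 1 that fell in Blm against ctrl skin. None of the 10 rose there, and 3.69% of all tested genes were called lower and 4.74% higher. Pdk4 had 8.61, 12.7 and 5.55 FPKM in Blm_nit skin, 23.5, 10.9 and 22.5 FPKM in Blm skin and 48.4, 52.5 and 39.2 FPKM in ctrl skin. All ctrl libraries stood above the others, and the difference was -1.32 ± 0.33 in Blm against ctrl (limma adjusted p = 0.0477) and -2.31 ± 0.33 in Blm_nit against ctrl (0.0139). The first call was lost without each of Blm_nit 1, Blm 1, Blm 2, Blm 3, ctrl 1, ctrl 2 and ctrl 3 (up to 0.16 over all alternatives), and with a pseudocount of 0.1 or 0.5, no filter or either marker covariate. Dlat (-0.89, 0.0383) and Pdhx (-0.66, 0.0322), subunits of the dehydrogenase, fell in Blm_nit against ctrl. With Pdk4, 3 of the 10 fell there and none rose, beside 4.90% and 3.63% of all tested genes. Of those 3 calls, none remained without ctrl 1 or ctrl 2, 1 without each of Blm_nit 1, Blm_nit 3 and Blm 3, and 2 without each of Blm 1, Blm 2 and ctrl 3. With no filter or only the groups compared 1 remained, and with either marker covariate none. The medians of the list were -0.54 in Blm against ctrl and -0.04 in Blm_nit against Blm. Reads of mitochondrially encoded genes made up 2.84% to 4.49% in Blm_nit skin, 3.77% to 4.17% in Blm skin and 6.61% to 8.02% in ctrl skin.

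Patterns over the 9 libraries were also compared, by the distance between z-scored log2(FPKM + 1) values, where smaller is more alike. Among the 10, Hif1a and Slc2a1 were each nearest to the other (1.18), and so were Hk2 and Pgk1 (1.05), while the nearest of the 10 to Ldha was Pgk1 (1.21). Over all tested genes outside the 10, the nearest to Hif1a was Cxcl5, a neutrophil-drawing chemokine (0.602), and the nearest to Slc2a1 was Degs2, a ceramide hydroxylase of epithelia (0.535). Vegfa was nearest to Ndrg1, a hypoxia-induced gene (0.578), Ldha to Ccng1 (0.467), Pgk1 to Map7d1 (0.521) and Hk2 to Rai2 (0.446). The remaining nearest genes were Cpox for Pfkp (0.915), Ppm1b for Pdk1 (0.580), Tal2 for Adm (0.532) and Gm2541 for Ankrd37 (0.814). These distances are descriptions over 9 libraries that share the group differences.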

How the data were processed

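RNA of 9 mouse skin samples was sequenced. Per the labels' protocols, libraries were made from total RNA with an mRNA kit, and per the submitters' processing notes the build was mm10. For aligner and counter, the tools are not given in the sources used here. Values are FPKM for each gene and library, deposited by the authors beside gene lengths. FPKM times length gave whole reads within 0.05 for 100% of values below 1000 reads. The ratio of effective depth, the depth that the FPKM imply, to summed reads was 0.916 to 0.9675 in ctrl libraries. It was 0.995 to 1.07 in Blm libraries and 1.03 to 1.09 in Blm_nit libraries, so all ctrl libraries lay below the others. A count of 0 allows up to 3 reads, for counting error only. Groups were taken from titles.

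The model of log2(FPKM + 1), for genes at 1 FPKM or more in 3 or more libraries, used limma 3.58.1 (R 4.3.3), with 3 group means in 1 fit and eBayes with trend and robust options, two-sided. P-values were Benjamini-Hochberg adjusted over 14645 genes, and the script was tested on simulated data. With 3 against 3, exact permutation cannot go below 0.1. The members and lists were chosen with earlier results of these data known. Named from each pathway list were up to 6 genes with the smallest p in Blm against ctrl and up to 4 in Blm_nit against Blm, and the 1 nearest gene to each member. Up to 22 alternatives were run, of which the muscle covariate was added after the data were seen. A gene of the HIF target list is not reported here.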

Additional observations from a re-analysis of the deposited data

How the results depend on the processing

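Hif1a and Slc2a1 in Blm against ctrl, and Ldha in Blm_nit against ctrl, kept their direction in all 22 alternatives each. The count of genes called in Blm against ctrl, 1234, was 676 with no filter, 747 with a mean FPKM of at least 5, 1947 with sample weights, 520 with the muscle covariate, 137 without both ctrl 1 and Blm 1, and 334 to 1539 with 1 library left out. That in Blm_nit against ctrl, 1249, was 294 with no filter, 306 with only the groups compared, 2085 with sample weights, 9 with the hair follicle covariate, 25 with the muscle covariate, 23 without both, and 45 to 2882 with 1 library left out. That in Blm_nit against Blm, 0, was 0 to 37 with 1 library left out. Of the 10 genes, 2 were called in Blm against ctrl, 1 with no filter, 0 without both ctrl 1 and Blm 1, and 0 to 2 with 1 library left out. In Blm_nit against ctrl 1 was called, and 0 with no filter, with only the groups compared, with either covariate or without both, and 0 to 1 with 1 library left out. The causes were not tested, except that fewer libraries, more genes or a covariate that follows the groups enter by construction.

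Uncalled estimates changed sign as follows. In Blm against ctrl, Hk2 was 0.013 with voom, 0.049 with the hair covariate and 0.53 with the muscle covariate (-0.46 to 0.094 with 1 library or both ctrl 1 and Blm 1 left out, as in the ranges that follow). Pgk1 was -0.044 with quantile normalization (-0.13 to 0.25). Ldha was 0.052 with the muscle covariate. Pdk1 was 0.0048 with voom and 0.16 with the muscle covariate (-0.28 to 0.0081). Adm was 0.022 with voom, 0.11 with the hair covariate and 0.73 with the muscle covariate (-0.53 to 0.52). In Blm_nit against Blm, Pdk1 was 0.0089 with the hair covariate, 0.087 with the muscle covariate (-0.17 to 0.049), and Ankrd37 was 0.012 with the muscle covariate (-0.44 to 0.089). In Blm_nit against ctrl, the muscle covariate gave -0.064 for Hif1a, 0.23 for Hk2, 0.012 for Pgk1, 0.25 for Pdk1, 0.46 for Adm and 0.86 for Vegfa, and Vegfa was 0.12 with voom and 0.42 with the hair covariate (-0.23 to 0.15). With 1 library left out, Hif1a was -0.033 to 0.15 and Pfkp -0.028 to 0.32.

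Replicate numbers are shared across groups, and the deviations of same-numbered libraries correlated above 0.1 in 5 of 9 pairs, from 0.344 to 0.443 for number 3, 0.517 for Blm 1 with ctrl 1 and -0.391 for Blm_nit 2 with Blm 2. Of the 9 libraries, 3 correlated best with both libraries of their own number. Not every pair exceeded 0.1, so the numbers were not taken to pair the samples. With the replicate block, 1039 genes were called in Blm against ctrl, 1067 in Blm_nit against ctrl and 10 in Blm_nit against Blm, none of the last among the 10 genes. The block also removed the calls of Ramp2, Ramp3, Pdk4, Aldoc and P4ha2 in Blm against ctrl, and of Cited2, Calcrl and Ackr3 in Blm_nit against ctrl.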
